A study of Arabidopsis thaliana with 18 samples.

Results

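The XTH family of Arabidopsis thaliana, XTH1 to XTH33, was followed through the tip section of roots given brassinosteroid, auxin or both, and through roots that lack normal brassinosteroid synthesis or perception. The members are all 33 loci that carry the family name, listed by locus identifier, and the family was chosen with earlier results of these data known. All 33 were among the 33602 loci of each count table, and 27 had enough counts to be tested. By the usual phylogenetic division, 7 of 11 members of group I (XTH1 to XTH11), 14 of 15 of group II (XTH12 to XTH26) and 6 of 7 of group III (XTH27 to XTH33) were tested. The other 6, XTH1 (AT4G13080), XTH2 (AT4G13090), XTH3 (AT3G25050), XTH6 (AT5G65730), XTH25 (AT5G57550) and XTH29 (AT4G18990), had at most 10 counts in any library, and XTH1 had none.

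XTH genes encode xyloglucan endotransglucosylase/hydrolases, secreted enzymes that cut xyloglucan, the hemicellulose that coats and tethers cellulose microfibrils in the primary wall. Most members rejoin the cut end to another xyloglucan chain, which lets a wall be remodelled while it grows, and some of group III can hydrolyse the chain instead. Brassinosteroids bind the receptor kinase BRI1 at the cell surface and, through dephosphorylation of the transcription factor BZR1 and its relatives, change the transcription of many growth genes, wall-modifying enzymes among them. Auxin controls root elongation and branching, and in roots it can inhibit cell elongation.

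Transcripts were sequenced in 18 libraries, 2 for each of 9 groups, from 7-day-old seedlings of the Col-0 background, whose roots were cut so that the tip section alone was used. In the 101 bp set, wild-type Col-0 was treated for 4 h with mock solution, with 100 nM of the steroid hormone brassinolide (BL), with 5 µM of the auxin indole-3-acetic acid (IAA), or with IAA plus BL. The same set held bri1-116, a mutant of the receptor BRI1, and the double mutant bri1-116;bzr1-1D, in which a dominant allele makes a stabilised BZR1, both without treatment. In the 36 bp set were untreated wild-type Col-0, untreated dwf4 and dwf4 given 100 nM BL for 4 h. The dwf4 mutant lacks a hydroxylase of brassinosteroid synthesis, and the labels do not name its allele. The 36 bp libraries analysed here hold no mock-treated group, so in dwf4 the hormone cannot be told apart from the handling that came with it. The receptor mutant and the double mutant were untreated but are set against mock-treated Col-0, so genotype and mock treatment cannot be told apart there. Whether the 2 libraries of each group came from separate cultures is not in the labels, so p-values measure only the spread between these libraries, which may be technical.

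Gene counts summed to between 11225390 and 36431707 in the libraries of 101 bp and to between 11764200 and 15647439 in those of 36 bp. A transcript with no count could have had a level of 0.0837 to 0.270 CPM, depending on the library (CPM are counts scaled to a common library total and adjusted for composition). That limit is 3 counts and covers counting error only. Levels are CPM of replicate 1 and replicate 2, in that order. Changes are log2 fold changes with their standard error (SE), and calls are at an adjusted p of 0.05 by the quasi-likelihood F test of edgeR, adjusted by Benjamini-Hochberg over all genes tested. In whole root tips, fewer cells of a type and less RNA per cell cannot be told apart. The 36 bp libraries differed from the 101 bp libraries in read length and experiment, so levels are compared within a set. The mutated genes were still transcribed in their mutants, so their levels do not check the labels: BRI1 was at 141.9 and 135.3 CPM in bri1-116 against 114.1 and 129.3 CPM in mock, and DWF4 at 47.6 and 48.5 CPM in dwf4 against 49.8 and 51.9 CPM in wild type. Markers of root hair cells, meristem, root cap and endodermis were counted in every library, and 3 shoot markers summed to between 2.71 and 75.1 CPM. Untreated dwf4 replicate 2 stood apart from replicate 1: 5 touch and handling genes (TCH2, TCH3, ZAT10, ZAT12 and CML38) summed to 153 and 300.5 CPM in the 2 libraries, against 123 and 120.2 CPM in wild type.

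Per length of exon, the highest levels in mock-treated root tips were those of XTH4 (124.3 ± 0.0314 CPM per kb, SD, n = 2), XTH14 (123.4 ± 4.44), XTH19 (115.8 ± 0.434), XTH24 (113.6 ± 14.8) and XTH18 (102.1 ± 1.24). XTH4 and XTH14 did not differ beyond their spread, nor did XTH19 and XTH24. A middle range held XTH31 at 86.7 ± 7.92 CPM per kb, XTH17 at 79.8 ± 1.64, XTH8 at 79.2 ± 4.39, XTH15 at 78.6 ± 7.26 and XTH30 at 60.1 ± 3.54, and the first 4 of these overlapped one another. XTH27 (34.5), XTH12 (34.0), XTH20 (33.8), XTH13 (32.0), XTH21 (30.4) and XTH16 (30.3) lay close together, and XTH7 was the lowest tested member at 0.430 ± 0.0859 CPM per kb. No member held a large part of the family's transcript: XTH4 made up 9.81% of the summed level per kb.

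**Figure D1:**
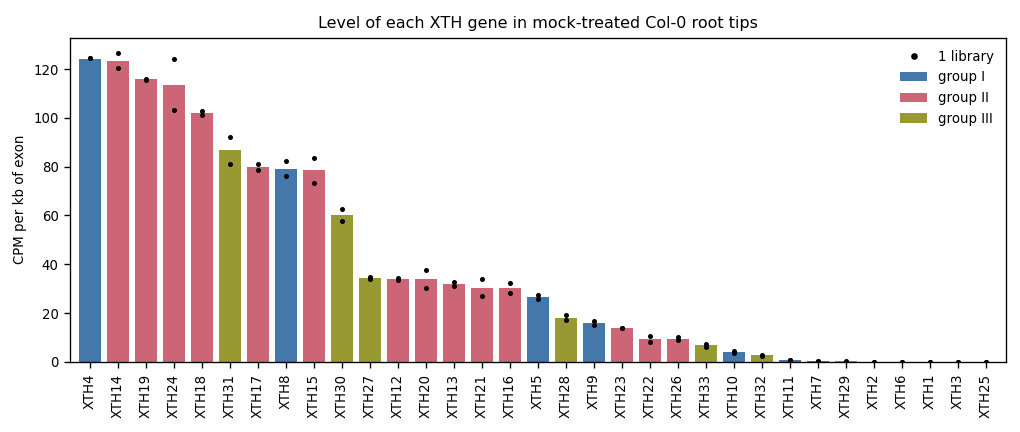
Level of each of the 33 XTH genes in mock-treated Col-0 root tips, in CPM per kb of exon, as bars of the mean of 2 libraries coloured by phylogenetic group, with each library as a point. The 5 highest genes lie above 100 CPM per kb and the 6 genes on the right had too few counts to be tested.

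The summed level of the 33 genes moved with treatment and genotype. It was 1682 and 1674 CPM in the mock libraries, 2132 and 2160.0 CPM with BL, 1275 and 1265 CPM with IAA and 1385 and 1535 CPM with IAA plus BL. In bri1-116 the sum was 1317 and 1365 CPM and in the double mutant 1679 and 1567 CPM. At 36 bp it was 1463 and 1507 CPM in wild type, 1284 and 1636 CPM in untreated dwf4 and 2289 and 2196 CPM in BL-treated dwf4. The sum was thus higher with BL alone, in Col-0 and in dwf4, than in the controls of the same set, and lower with IAA and in bri1-116, while the 2 untreated dwf4 libraries lay on either side of wild type. These sums are a description and were not tested.

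Markers of other root tissues moved with some of these comparisons. The endodermis markers CASP1 and CASP2 summed to 349.8 and 375 CPM in mock, 402 and 377 CPM with BL, 261 and 226 CPM with IAA, 240.1 and 275 CPM with both, 172 and 175 CPM in bri1-116 and 241 and 213 CPM in the double mutant. At 36 bp they summed to 201 and 205 CPM in wild type, 126 and 145 CPM in dwf4 and 182 and 165 CPM in dwf4 with BL. Both were lower with IAA, in bri1-116 and in dwf4, and both rose with BL in dwf4. Of all genes, 29.3% were lower with IAA, 19.4% in bri1-116 and 7.93% in dwf4, and 7.86% rose with BL in dwf4. The 5 meristem markers (PLT1, PLT2, SHR, SCR and WOX5) summed to 142 and 147 CPM in mock, 129.6 and 116 CPM with BL, 139 and 137 CPM with IAA and 178 and 181 CPM in bri1-116. Of these, BL lowered 2 in wild type and 3 in dwf4, IAA lowered 2 and raised 1, and 3 were higher in bri1-116 and 2 in dwf4. Among all genes, BL lowered 6.59% in wild type and 5.45% in dwf4, and IAA lowered 29.3% and raised 29.9%. Higher were 16.7% in bri1-116 and 4.79% in dwf4. Of the 2 root cap genes, FEZ fell with BL in wild type (-1.44) and SMB did not pass (-0.19). Both fell with BL in dwf4 (-2.90 and -0.41). IAA raised 1 of the 2 (0.66), 1 was higher in bri1-116 (0.58), and 1 was lower in the double mutant than in bri1-116 (-1.49, 19.1% of all genes lower). The 3 shoot markers were lower with IAA, at a sum of 4.16 and 2.71 CPM against 11.5 and 14 CPM in mock. At 36 bp they summed to 8.81 and 6.23 CPM in wild type, 15.99 and 17.65 CPM in dwf4 and 22.8 and 25.7 CPM in dwf4 with BL. Against wild type, 1 of the 3 was higher in dwf4 and 2 were in dwf4 with BL (9.63% of all genes). The meristem markers summed to 138.3 and 131.1 CPM in the double mutant, with 4 of 5 lower than in bri1-116 (19.1% of all genes). The part of these markers in the values of the XTH genes was not tested.

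BL for 4 h raised 13 of the 27 tested members in wild type and lowered 1, with a median log2 fold change of 0.28. Of all genes tested, 13% were called, 6.37% higher and 6.59% lower, with a median near 0. The risers came from group I (XTH4, XTH5 and XTH9), group II (XTH12, XTH13, XTH15, XTH16, XTH17, XTH18 and XTH19) and group III (XTH30, XTH31 and XTH33). XTH24 was the member that fell. The largest rises were those of XTH4 (0.81, SE 0.0672, adjusted p = 1.09e-06), XTH31 (0.79, SE 0.106, adjusted p = 0.000158) and XTH33 (0.79, SE 0.156, adjusted p = 0.00332), all under 2-fold. With 1 library left out, the calls of XTH5 (mock replicate 2 or BL replicate 1, adjusted p up to 0.116), XTH9 (mock replicate 2, 0.0646), XTH15 (mock replicate 1, 0.0704) and XTH18 (either mock library or BL replicate 1, 0.381) did not pass.

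In dwf4, where the plants' own brassinosteroid is lacking, BL raised 14 members and lowered 2, with a median of 0.65. Of all genes tested, 13.3% were called, 7.86% higher and 5.45% lower. The 14 were XTH4, XTH5, XTH8, XTH9, XTH12, XTH15, XTH16, XTH17, XTH19, XTH21, XTH26, XTH30, XTH31 and XTH33, and the 2 that fell were XTH24 and XTH32. XTH33 (2.43, SE 0.218, adjusted p = 0.000311), XTH16 (2.06, SE 0.138, adjusted p = 8.99e-05) and XTH17 (1.56, SE 0.107, adjusted p = 0.000101) rose most. The libraries of this comparison and of BL against mock are separate, and 12 members were called in both, each in the same direction, which is 85.7% of the 14 called in wild type and 75.0% of the 16 called in dwf4. Over the 19502 genes tested in both sets the shares were 47.4% and 48.2%, and 99.8% of the shared calls had the same direction. Of the 27 members, 25 had the same sign in both (72.6% of all genes), and the fold changes correlated at r = 0.68 (0.61 over all genes) across genes, which are not independent replicates. A single library carried the calls of XTH5 and XTH9 (BL-treated dwf4 replicate 2, adjusted p of 0.0638 and 0.0537 without it) and XTH26 (BL-treated dwf4 replicate 1, 0.0598).

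The BL response itself was larger in dwf4 than in wild type for 3 members, XTH16, XTH17 and XTH33, and smaller for none, in a fit of all 18 libraries. Genotype coincides here with read length, with experiment and with an untreated control in place of mock, and cannot be told apart from them. Of all genes in that fit 0.932% were called, 0.628% larger and 0.304% smaller in dwf4. XTH16 differed by 1.4 on the log2 scale (SE 0.168, adjusted p = 0.000354), XTH17 by 1.12 (SE 0.131, adjusted p = 0.000301) and XTH33 by 1.64 (SE 0.302, adjusted p = 0.0154). XTH33 did not pass without mock replicate 2 (adjusted p = 0.0768). Without untreated dwf4 replicate 2 the count was 9, and with no low-count filter it was 13.

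IAA for 4 h moved most of the family down: 15 members fell and 6 rose, with a median of -0.41, on a background in which 59.3% of all genes were called, 29.9% higher and 29.3% lower. Both endodermis markers and all 3 shoot markers also fell. XTH33 (-3.43, SE 0.242, adjusted p = 3.29e-09), XTH17 (-2.82, SE 0.0842, adjusted p = 6.14e-14), XTH21 (-2.73, SE 0.122, adjusted p = 9.04e-12) and XTH32 (-2.46, SE 0.239, adjusted p = 1.69e-07) fell most. Counts in the 2 IAA libraries were few for XTH33 (20 and 19) and XTH32 (31 and 16). The risers were XTH4, XTH7, XTH11, XTH22, XTH26 and XTH31, led by XTH11 (1.62) and XTH22 (1.58). In every one of the 27 members the 2 IAA libraries lay on the same side of both mock libraries, whether or not the difference passed the test. The share of all genes for which this held was not counted, so it cannot be read as particular to the family. XTH20 did not pass by DESeq2, nor without mock replicate 1 or IAA replicate 2 (adjusted p up to 0.142), and XTH26 did not without mock replicate 2 or IAA replicate 1 (up to 0.0546).

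Against mock, IAA plus BL lowered 16 members and raised 7 (XTH4, XTH5, XTH7, XTH10, XTH18, XTH22 and XTH31), with a median of -0.47, where 52% of all genes were called, 26% higher and 26.1% lower. XTH10 did not pass by DESeq2 or without mock replicate 2 or IAA plus BL replicate 1 (adjusted p up to 0.226), and XTH20 did not by DESeq2 or without mock replicate 1 or IAA plus BL replicate 2 (up to 0.181). Within IAA-treated roots, BL raised 8 members (XTH5, XTH7, XTH15, XTH17, XTH18, XTH19, XTH30 and XTH33) and lowered 5 (XTH13, XTH14, XTH22, XTH24 and XTH26), where 10.5% of all genes were called, 5.4% higher and 5.13% lower. The largest rises there were XTH33 (1.55, SE 0.326, adjusted p = 0.00535), XTH7 (1.14), XTH5 (1.13) and XTH19 (0.91). The count of 13 came to 9 if IAA replicate 1 was left out, to 10 if IAA replicate 2 was, and to 8 if replicate 2 of IAA plus BL was. XTH7, XTH15, XTH17, XTH24, XTH26, XTH30 and XTH33 each lost their call without at least 1 library, with adjusted p up to 0.224, 0.374, 0.0949, 0.113, 0.166, 0.253 and 0.179.

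**Figure D2:**
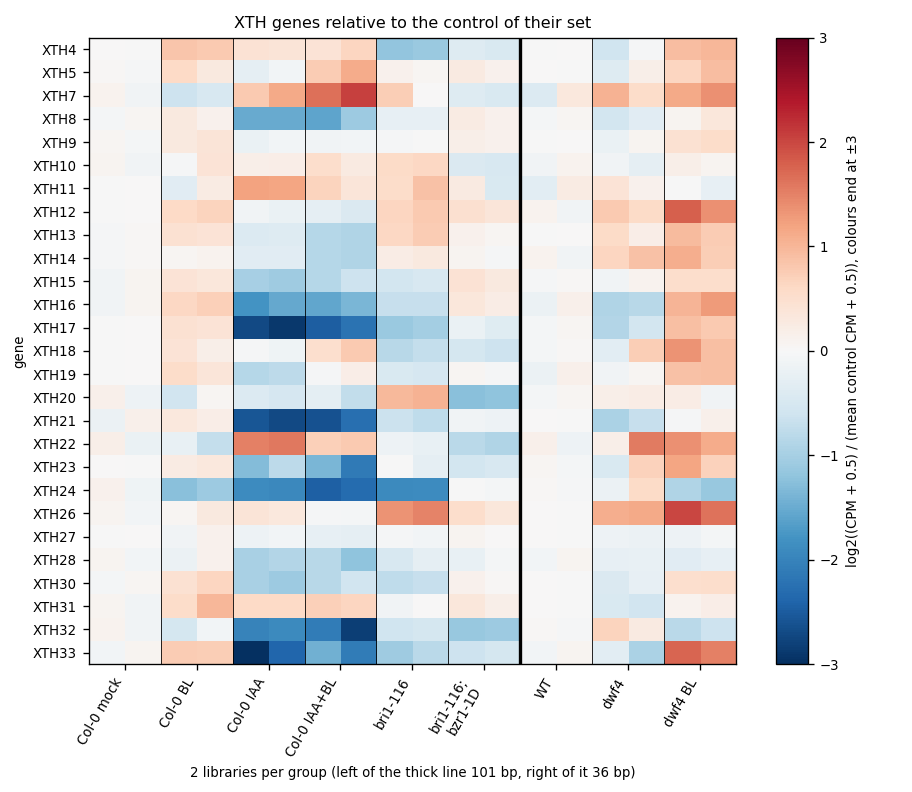
Level of each of the 27 tested XTH genes in all 18 libraries relative to the mean of the control of its set, mock-treated Col-0 for the 101 bp libraries and untreated wild type for the 36 bp libraries, as log2 of CPM plus 0.5. Red is higher and blue lower than the control. The blue block under IAA and IAA plus BL holds XTH17, XTH21 and XTH33, and the red block on the right is dwf4 given BL.

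The BL by IAA interaction, the difference between the BL response with and without IAA, was called for 7 members, 2 with a positive and 5 with a negative value, where 1.44% of all genes were called, 0.606% positive and 0.838% negative. A negative value means that BL raised the gene less, or lowered it more, when IAA was present. XTH13 (-0.91, SE 0.0977, adjusted p = 9.48e-05), XTH12 (-0.84, SE 0.106, adjusted p = 0.000413), XTH4 (-0.70, SE 0.0945, adjusted p = 0.000724), XTH14 (-0.63, SE 0.0838, adjusted p = 0.000666) and XTH31 (-0.71, SE 0.149, adjusted p = 0.0216) were negative, and XTH24 (0.70, SE 0.123, adjusted p = 0.00614) and XTH5 (0.65, SE 0.153, adjusted p = 0.044) positive. XTH4, XTH12, XTH13 and XTH14 passed in every alternative run. XTH31 did not pass without mock replicate 2 or without any 1 of the 4 IAA and IAA plus BL libraries (adjusted p up to 0.0994). XTH24 did not pass in a fit of all 18 libraries (0.256), and XTH5 did not in 9 alternatives (up to 0.268), among them those without mock replicate 1, mock replicate 2, BL replicate 2, IAA replicate 1, IAA replicate 2 or IAA plus BL replicate 2. With no low-count filter the count was 13.

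In the receptor mutant bri1-116, 12 members were lower and 7 higher than in mock-treated Col-0, with a median of -0.19, where 36.1% of all genes were called, 16.7% higher and 19.4% lower. Both endodermis markers were lower there too, and 3 of 5 meristem markers higher. Lower were XTH4, XTH15, XTH16, XTH17, XTH18, XTH19, XTH21, XTH24, XTH28, XTH30, XTH32 and XTH33, and higher were XTH10, XTH11, XTH12, XTH13, XTH14, XTH20 and XTH26. XTH24 fell most (-1.90, SE 0.0799, adjusted p = 1.36e-10) and XTH26 rose most (1.47, SE 0.0904, adjusted p = 5.41e-09). In untreated dwf4, 6 members were lower (XTH8, XTH16, XTH17, XTH21, XTH30 and XTH31) and 3 higher (XTH12, XTH14 and XTH26) than in wild type, where 12.7% of all genes were called, 4.79% higher and 7.93% lower. These 2 comparisons share no library, and the 7 members called in both, XTH12, XTH14, XTH16, XTH17, XTH21, XTH26 and XTH30, went the same way in both (36.8% of the 19 called in bri1-116 and 77.8% of the 9 called in dwf4). Over all genes tested in both sets these shares were 25.7% and 74.6%, with 94.9% of shared calls in the same direction, so the members were near the rest in the second share. The dwf4 count was 6 without wild-type replicate 1, 3 without wild-type replicate 2, 11 without dwf4 replicate 1 and 12 without dwf4 replicate 2. Without wild-type replicate 2 the calls of XTH8, XTH12, XTH14, XTH16, XTH17 and XTH30 did not pass, and over all alternatives their adjusted p reached 0.223, 0.185, 0.105, 0.0583, 0.0650 and 0.148. In bri1-116, XTH11, XTH28 and XTH32 each lost their call without mock replicate 1 among other libraries, with adjusted p up to 0.130, 0.160 and 0.131.

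Active BZR1 in the receptor mutant raised 10 members against bri1-116 and lowered 10, where 40.3% of all genes were called, 21.2% higher and 19.1% lower. Raised were XTH4, XTH8, XTH15, XTH16, XTH17, XTH19, XTH21, XTH24, XTH30 and XTH31, and lowered were XTH7, XTH10, XTH11, XTH12, XTH13, XTH14, XTH20, XTH22, XTH26 and XTH32. XTH20 fell most (-2.27, SE 0.169, adjusted p = 3.15e-08) and XTH24 rose most (1.87, SE 0.0824, adjusted p = 1.64e-10). With 1 library left out the count was 15 to 17. XTH32 (adjusted p = 0.0497) did not pass without any 1 of the 4 libraries, and XTH7, XTH8, XTH11, XTH12, XTH14 and XTH31 each did not without at least 1 of them (adjusted p up to 0.272, 0.0637, 0.279, 0.0610, 0.109 and 0.312). XTH22 did not pass in a fit of all 18 libraries scaled together (0.137). This comparison and that of bri1-116 with mock use the same bri1-116 libraries, so the members' own values in both are given below and no count of shared calls. Against mock-treated Col-0, the double mutant was still lower for 8 members (XTH4, XTH17, XTH18, XTH20, XTH22, XTH23, XTH32 and XTH33) and higher for 4 (XTH12, XTH15, XTH16 and XTH26), where 16.2% of all genes were called, 8.03% higher and 8.17% lower. This count of 12 was 8 without either mock library, 7 without double mutant replicate 1, 8 without double mutant replicate 2 and 6 with all 18 libraries in 1 fit. Shoot markers (RBCS1A, LHCB1.3 and LHCB2.1) summed to 66.8 and 75.1 CPM in the double mutant, 28.6 and 22.2 CPM in bri1-116 and 11.5 and 14 CPM in mock-treated Col-0, and their part in these results was not tested.

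BL-treated dwf4 was higher than untreated wild type for 16 members and lower for 3 (XTH24, XTH28 and XTH32), with a median of 0.81, where 18.8% of all genes were called, 9.63% higher and 9.16% lower. XTH26 (1.91, SE 0.154, adjusted p = 0.000173), XTH33 (1.74, SE 0.197, adjusted p = 0.000873) and XTH12 (1.62, SE 0.147, adjusted p = 0.000296) had the largest values among the members with more than a few CPM. This count of 19 was 9 without wild-type replicate 1, 11 without wild-type replicate 2, 14 without BL-treated dwf4 replicate 1 and 12 without BL-treated dwf4 replicate 2. XTH12, XTH13, XTH14, XTH16, XTH17, XTH19, XTH26, XTH30 and XTH33 kept their calls in every alternative run.

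**Figure D3:**
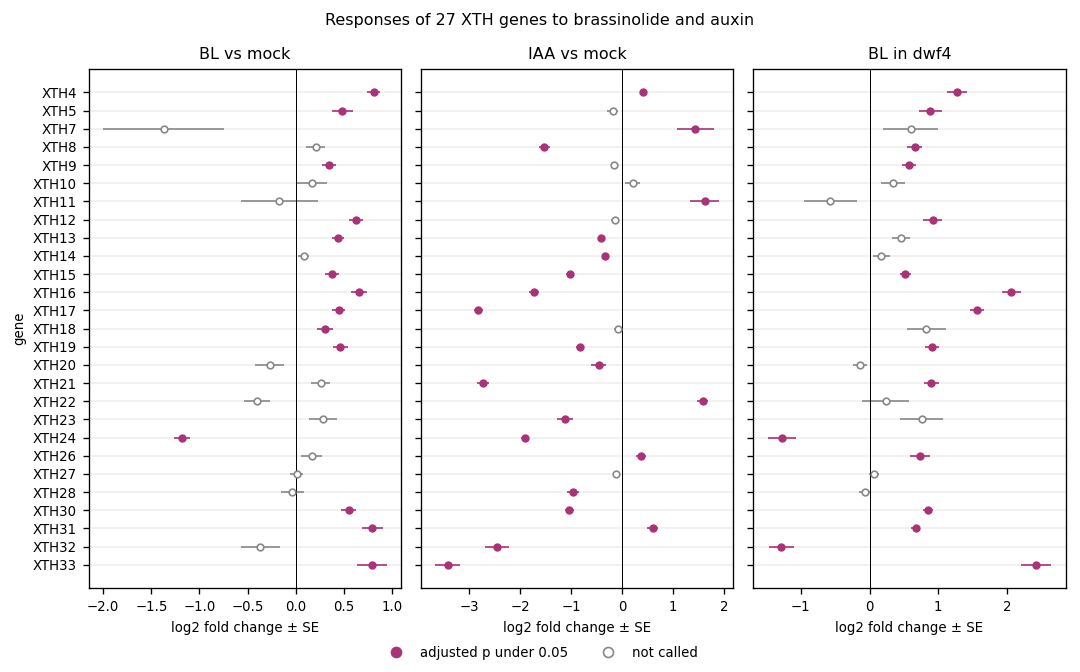
Log2 fold changes (horizontal axis, with SE) of the 27 tested XTH genes for BL against mock, IAA against mock and BL in dwf4, each panel with its own scale; filled points passed the test. BL raised 13 genes in wild type and 14 in dwf4, while IAA lowered 15, and XTH24 was lower in all 3 panels.

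Within group II, XTH17, XTH18, XTH19 and XTH20 are close paralogs that earlier work studied as root genes. XTH17 and XTH18 were also the pair of family members with the longest identical stretch upstream of the gene. The 250 bases before each gene start are shown here for that reason, in TAIR10.1 from RefSeq, 5′ to 3′ on the gene's strand, with the shared stretch of 73 bases in capitals (XTH17 at chr1:24256804-24257053, plus strand, XTH18 at chr4:14827212-14827461, minus strand).
XTH17: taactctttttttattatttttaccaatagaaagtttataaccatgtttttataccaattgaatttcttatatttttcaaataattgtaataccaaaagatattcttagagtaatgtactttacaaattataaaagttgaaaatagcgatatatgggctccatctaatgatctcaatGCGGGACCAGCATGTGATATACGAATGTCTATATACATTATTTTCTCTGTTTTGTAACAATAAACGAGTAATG
XTH18: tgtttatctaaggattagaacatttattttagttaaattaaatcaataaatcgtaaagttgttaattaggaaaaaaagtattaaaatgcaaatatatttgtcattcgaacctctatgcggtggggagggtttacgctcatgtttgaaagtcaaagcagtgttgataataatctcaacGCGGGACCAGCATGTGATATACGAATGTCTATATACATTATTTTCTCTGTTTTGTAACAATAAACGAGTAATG
The stretch runs up to the edge of the window at the gene start. Over the 528 pairs of members the next longest shared run was 14 bases and the median was 9, and the stretch occurred in 2 of 27443 windows of protein-coding genes (0.00729%). It holds CATGTG, an E-box, from base -63 to base -58 in both genes. On either strand, CATGTG was in 5 of 33 member windows (XTH17, XTH18, XTH25, XTH26 and XTH33, 15.2%) and in 11.1% of all windows. The brassinosteroid response elements CGTGTG and CGTGCG were in 4 and 0 member windows (5.37% and 1.57% of all), the G-box CACGTG in 0 (6.49%), and the auxin response elements TGTCTC and TGTCGG in 2 and 1 (10.9% and 4.16%). A CACGTG followed by TG also holds CGTGTG. A match is a description of the window's letters alone.

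The values of XTH17 and XTH18 lay apart with IAA. XTH17 (AT1G65310) stood at 97.9 and 101 CPM in mock, 138 and 132 CPM with BL, 14.7 and 12.9 CPM with IAA and 17.6 and 21.1 CPM with both hormones. XTH18 (AT4G30280) stood at 128 and 130.0 CPM in mock, 171 and 146 CPM with BL, 126 and 119 CPM with IAA and 182 and 221 CPM with both. XTH17 was thus far below mock in all 4 libraries with IAA (IAA log2 fold change -2.82, SE 0.0842, adjusted p = 6.14e-14), whereas XTH18 with IAA alone lay just under mock (log2 fold change -0.07, SE 0.0851, adjusted p = 0.481) and with both hormones above it (0.64, SE 0.0848, adjusted p = 7.21e-06). Whether the 2 genes differ in response was not tested as a contrast between genes. At 36 bp, 5.27% of the exon windows of XTH17 and 5.35% of those of XTH18 have a copy elsewhere, in part in each other and XTH19, and at 101 bp none do.

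In bri1-116 the fold changes of the 2 genes lay closer than with IAA, which was not tested as a contrast between genes. XTH17 was at 45.8 and 49 CPM in bri1-116 (log2 fold change -1.07, SE 0.0725, adjusted p = 1.45e-08) and 86.6 and 77.6 CPM in the double mutant (0.80, SE 0.0768, adjusted p = 5.63e-07 against bri1-116). XTH18 was at 71.9 and 78.5 CPM in bri1-116 (log2 fold change -0.78, SE 0.0865, adjusted p = 2.79e-06) and 88.8 and 83.2 CPM in the double mutant, where the rise against bri1-116 did not pass (adjusted p = 0.102). Both genes were therefore lower in the receptor mutant, and both remained below mock in the double mutant (-0.27 and -0.58). At 36 bp, XTH17 was at 68.5 and 75.2 CPM in wild type, 38.8 and 48.8 CPM in dwf4 and 134 and 124 CPM in dwf4 with BL. XTH18 was at 86.6 and 92.5, 71.7 and 151 and 227 and 167 CPM in the same groups. In dwf4 against wild type, XTH17 was lower (log2 fold change -0.72, adjusted p = 0.00413) and XTH18 did not pass (0.31, adjusted p = 0.538). The 2 dwf4 libraries differed about as much for XTH18 as dwf4 did from its BL-treated group, and BL in dwf4 did not pass for it (adjusted p = 0.0933). XTH17 was called in 11 of the 12 comparisons, more than any other member.

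XTH19 (AT4G30290), known from the dividing and elongating zones of the root, stood at 154 and 155 CPM in mock, 226 and 198 CPM with BL, 85.7 and 89.5 CPM with IAA and 150.0 and 178 CPM with both. BL raised it without IAA (log2 fold change 0.46, SE 0.0767, adjusted p = 0.000906) and with IAA (0.91, SE 0.0792, adjusted p = 1.57e-06), and with both hormones it did not differ from mock by the test (adjusted p = 0.38). It was at 112 and 109 CPM in bri1-116 and 161 and 149.7 CPM in the double mutant, and at 134 and 168, 141 and 157 and 276 and 283 CPM in wild type, dwf4 and dwf4 with BL. XTH20 (AT5G48070), known from vascular tissue of the mature root, was higher in bri1-116, where XTH17, XTH18 and XTH19 were lower. Its levels were 52.6 and 42.5 CPM in mock, 31.7 and 49.5 CPM with BL, 35.6 and 33.2 CPM with IAA and 38.7 and 28.5 CPM with both, and BL did not pass the test (adjusted p = 0.275). In bri1-116 XTH20 was at 93.9 and 99.2 CPM, above both mock libraries (log2 fold change 1.03, SE 0.137, adjusted p = 1.94e-05), and in the double mutant at 19.7 and 20.2 CPM, below them (-1.25, SE 0.177, adjusted p = 0.000137). In wild type, dwf4 and dwf4 with BL it was at 71.9 and 78.5, 85.1 and 87.3 and 87.2 and 69.4 CPM, with no call.

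XTH12, XTH13, XTH14 and XTH26 belong to group II and have been tied to root hairs, XTH14 and XTH26 by the action of their enzymes on hair initiation and growth. XTH12 (AT5G57530) was at 38.4 and 39.5 CPM in mock, 59 and 61.8 CPM with BL, 36.4 and 34 CPM with IAA and 32.2 and 28.8 CPM with both. Its neighbour XTH13 (AT5G57540) was at 34.6 and 36.4, 48.7 and 47.1, 26.5 and 26.9 and 19.5 and 18.6 CPM, and XTH14 (AT4G25820) at 140.4 and 148, 151 and 154, 113 and 114 and 78.8 and 77.3 CPM in the same order. In these 3 genes the BL libraries were the highest of the 4 groups and the IAA plus BL libraries the lowest, and the interaction was negative in all 3. For XTH14 the BL libraries lay just above mock, and the rise did not pass (log2 fold change 0.08, SE 0.0581, adjusted p = 0.393). Within IAA, BL lowered XTH13 (log2 fold change -0.48, SE 0.0739, adjusted p = 0.000417) and XTH14 (-0.54, SE 0.0604, adjusted p = 1.93e-05), while XTH12 did not pass (adjusted p = 0.104). XTH26 (AT4G28850) was at 11.8 and 10.6 CPM in mock, 11.7 and 13.8 with BL, 14.8 and 14 with IAA and 11 and 10.7 with both, and its interaction of -0.58 did not pass (adjusted p = 0.0747).

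All 4 of these genes were higher in the receptor mutant than in mock-treated Col-0. In bri1-116, XTH12 was at 60.8 and 67.8 CPM, XTH13 at 55.1 and 60.2 CPM, XTH14 at 167 and 176 CPM and XTH26 at 29.4 and 32.4 CPM, and in the double mutant they were at 54.5 and 50.1, 38.7 and 36.9, 154 and 139.6 and 16.2 and 14.2 CPM. The double mutant was lower than bri1-116 for each, from -0.22 for XTH14 to -1.02 for XTH26, and remained above mock for XTH12 (0.43, SE 0.0755, adjusted p = 0.00101) and XTH26 (0.45, SE 0.111, adjusted p = 0.0101). In wild type at 36 bp, XTH12 was at 23.1 and 20.1 CPM, XTH13 at 20.2 and 20.6, XTH14 at 73.1 and 63.2 and XTH26 at 5.69 and 5.64 CPM. In dwf4 they were at 37.8 and 32.5, 30.9 and 23.4, 106 and 125 and 12.7 and 13 CPM, higher by the test for XTH12, XTH14 and XTH26 (log2 fold change 1.18, SE 0.163, adjusted p = 0.00298), and XTH13 did not pass (adjusted p = 0.0838). BL in dwf4 brought them to 76 and 56.9, 39.8 and 34.8, 146 and 114 and 24.1 and 18.5 CPM, a further rise for XTH12 (0.92, SE 0.142, adjusted p = 0.00438) and XTH26 (0.73, SE 0.141, adjusted p = 0.0117). XTH12 and XTH26 were thus higher in dwf4 than in wild type and higher again with BL.

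Markers of root hair cells were read beside these 4 genes. The 7 markers (EXPA7, EXPA18, PRP3, COW1, LRX1, RSL4 and PRP1) summed to 629.6 and 629.6 CPM in mock, 749 and 721 CPM with BL, 388 and 399 CPM with IAA and 265 and 278 CPM with both. The sum was 848 and 890.2 CPM in bri1-116 and 724 and 732 CPM in the double mutant, and at 36 bp 497 and 460.1 CPM in wild type, 715 and 735 CPM in dwf4 and 961 and 727 CPM in dwf4 with BL. BL raised 3 of the 7 and lowered 0 (6.37% of all genes were higher), IAA lowered all 7 (29.3% lower), the interaction was negative for 6 and positive for 0 (0.838% negative), and bri1-116 was higher for 6 and lower for 0 (16.7% higher). Within IAA, BL lowered 5 of the 7 and raised 0 (5.13% of all genes were lower), and it lowered XTH13, XTH14 and XTH26. Against bri1-116, the double mutant was lower for 5 and higher for 0 (19.1% lower), and lower for all 4 XTH genes. Untreated dwf4 was higher than wild type for 4 and lower for 0 (4.79% higher), with XTH12, XTH14 and XTH26 higher. In dwf4, BL raised 2 and lowered 0 (7.86% higher), and raised XTH12 and XTH26. With IAA alone, XTH13 and XTH14 fell, XTH26 rose (0.38) and XTH12 did not pass (adjusted p = 0.113). With BL alone in wild type, XTH12 and XTH13 rose, and neither XTH14 nor XTH26 passed. None of the 7 was at 0 in any group. Their part in the values of XTH12, XTH13, XTH14 and XTH26 was not tested.

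XTH15, XTH16 and XTH21 fell with IAA, as XTH17 did. XTH15 (AT4G14130) was at 88.6 and 101 CPM in mock, 125 and 121 CPM with BL, 47.5 and 45.3 CPM with IAA and 51.9 and 61.2 CPM with both; it overlaps AT4G14120 on the opposite strand in TAIR10.1, and since the strand setting of the counting is not given, reads of the 2 genes may be mixed. XTH16 (AT3G23730) was at 34.4 and 39.4, 56.8 and 60.5, 10.3 and 12.5 and 12.2 and 14 CPM in the same order. XTH21 (AT2G18800), needed for normal root growth in earlier work, was at 32.4 and 40.4, 45.4 and 41.6, 5.69 and 5.12 and 5.55 and 7.21 CPM, and its rise with BL did not pass (adjusted p = 0.0885). All 4 libraries with IAA lay below both mock libraries in each of the 3 genes. In bri1-116 they were at 64.7 and 67.8 CPM (XTH15), 22.7 and 22.5 CPM (XTH16) and 23 and 21.1 CPM (XTH21), and in the double mutant at 128 and 117, 46.7 and 42.8 and 33.7 and 32.6 CPM. Each was lower in bri1-116 than in mock and higher in the double mutant than in bri1-116, and XTH15 and XTH16 then stood above mock (0.37 and 0.28).

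At 36 bp, XTH16 and XTH21 were lower in dwf4 than in wild type and rose there with BL. XTH16 went from 23.8 and 30.4 CPM in wild type to 14.2 and 14.9 CPM in dwf4 (log2 fold change -0.90, SE 0.144, adjusted p = 0.00555) and to 55.2 and 66.4 CPM with BL (2.06, SE 0.138, adjusted p = 8.99e-05). XTH21 went from 30.8 and 30 to 15.6 and 18.5 CPM (-0.84, SE 0.11, adjusted p = 0.00236) and back to 29.6 and 33.9 CPM. XTH15 was at 68.3 and 70.8, 64.8 and 75.3 and 101 and 99.7 CPM, and dwf4 did not differ from wild type by the test (adjusted p = 0.955). Of the exon windows of XTH21, 2.12% at 101 bp and 11.4% at 36 bp have a copy elsewhere in the genome.

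XTH24 (AT4G30270), also known as MERI5, was the one tested member that BL lowered in wild type. It stood at 150.2 and 125 CPM in mock, 57.5 and 64.1 CPM with BL, 37.1 and 35.6 CPM with IAA and 24.9 and 27.4 CPM with both. BL lowered it (log2 fold change -1.18, SE 0.0798, adjusted p = 1.7e-07), IAA lowered it (-1.91, SE 0.0809, adjusted p = 4.77e-12), and BL added a smaller fall when IAA was present (-0.49, SE 0.0926, adjusted p = 0.00252). In bri1-116, which cannot perceive brassinosteroid normally, XTH24 was also low, at 36.5 and 37 CPM, and in the double mutant it was back at 136 and 133 CPM, not different from mock by the test (adjusted p = 0.825). At 36 bp it was at 156 and 149.6 CPM in wild type, 134 and 228 CPM in dwf4 and 81.1 and 68.9 CPM in dwf4 with BL. XTH24 therefore fell with added BL in both genotypes and was also low in the receptor mutant, while dwf4 did not differ from wild type by the test (adjusted p = 0.476) and its 2 libraries lay on either side of wild type.

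XTH22 (AT5G57560), better known as TCH4, is induced by touch. It stood at 17.1 and 13.2 CPM in mock, 12.9 and 9.01 CPM with BL, 44.1 and 46.5 CPM with IAA and 25.3 and 26.4 CPM with both. IAA raised it (log2 fold change 1.58, SE 0.109, adjusted p = 2.36e-09), BL lowered it when IAA was present (-0.81, SE 0.107, adjusted p = 9.94e-05), and BL alone did not pass (adjusted p = 0.061). It was at 13.5 and 12.9 CPM in bri1-116, where its value of -0.19 did not pass, and at 8.5 and 7.82 CPM in the double mutant (-0.88, SE 0.157, adjusted p = 0.00104). In wild type, dwf4 and dwf4 with BL it was at 21.8 and 17.5, 22.2 and 58.5 and 51.5 and 43.2 CPM, so dwf4 replicate 1 was close to wild type and replicate 2 was not. The touch markers summed to 103 and 87.7 CPM in mock, 81.5 and 80.6 CPM with BL, 303 and 297 CPM with IAA, 277 and 343 CPM with both, 195 and 161 CPM in bri1-116, 113 and 72.6 CPM in the double mutant and 256 and 229.5 CPM in dwf4 with BL. Of the 5, IAA raised 3 and lowered 0 (29.9% of all genes were higher), and bri1-116 was higher for all 5 (16.7% higher). Within IAA, BL lowered 3 of the 5 and raised 0 (5.13% lower), and BL alone raised 0 and lowered 0. Their part in the values of XTH22 was not tested.

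XTH23 (AT4G25810, also XTR6) stood at 19.1 and 18.8 CPM in mock, 22.6 and 23.6 CPM with BL, 7.34 and 10.8 CPM with IAA and 7.05 and 3.95 CPM with both, below mock wherever IAA was given (log2 fold change -1.13, SE 0.16, adjusted p = 1.31e-05). It was at 18.6 and 15.7 CPM in bri1-116 and 12.8 and 13.5 CPM in the double mutant, whose fall against mock (-0.53, SE 0.171, adjusted p = 0.0442) did not pass when any 1 of the 4 libraries compared was left out (adjusted p up to 0.225). At 36 bp it was at 15.4 and 14.3, 10.6 and 24.4 and 34.6 and 24.4 CPM, with no call, and dwf4 replicate 2 again lay above replicate 1. Several members are close neighbours in the genome. On chromosome 4, XTH24 (14819192 to 14820595), XTH18 (14825757 to 14827211) and XTH19 (14828712 to 14830224) follow each other on the minus strand, and BL lowered the first and raised the other two. On chromosome 5, XTH12 (23300321 to 23301689), XTH13 (23302787 to 23304095), XTH25 (23304782 to 23306440) and XTH22 (23307006 to 23308680) lie side by side on the minus strand, and BL raised XTH12 (0.63) and XTH13 (0.43) and did not pass for XTH22. XTH25, between XTH13 and XTH22, was counted in 9 of 18 libraries and reached no more than 0.0899 CPM.

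**Figure D4:**
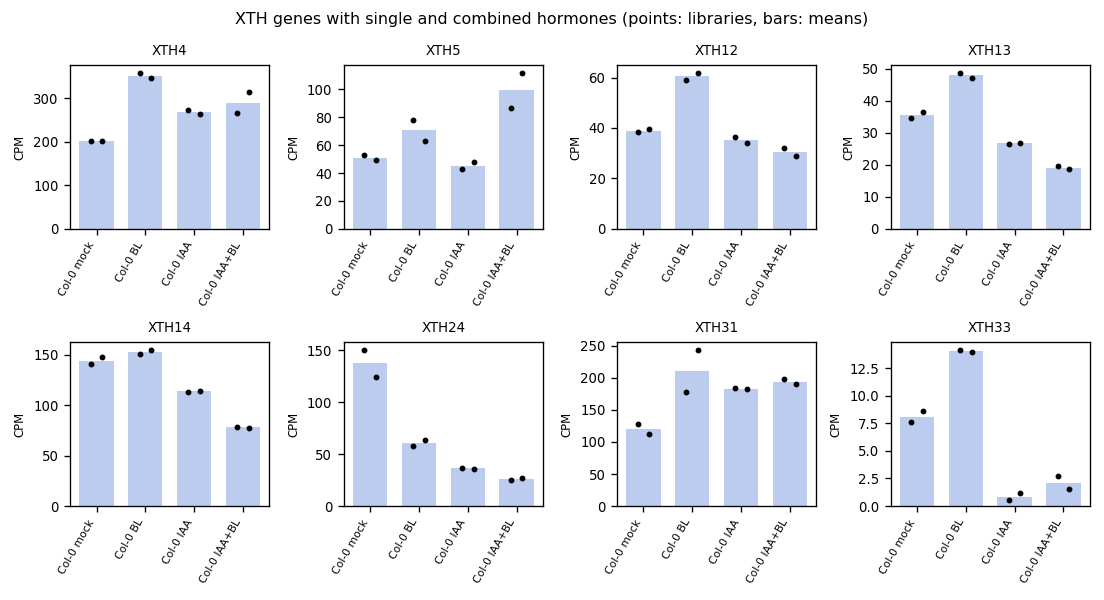
Levels of XTH4, XTH5, XTH12, XTH13, XTH14, XTH24, XTH31 and XTH33 in the 4 hormone groups of Col-0, in CPM on axes that start at 0, with bars for the mean of 2 libraries and a point for each library. BL libraries are the highest and IAA plus BL the lowest for XTH12, XTH13 and XTH14, and IAA plus BL is the highest for XTH5. The rise of XTH14 with BL did not pass the test.

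Group I was led by XTH4 (AT2G06850), also called EXGT-A1. It stood at 201 and 201 CPM in mock, 357 and 346 CPM with BL, 273 and 262 CPM with IAA and 266 and 314 CPM with both. BL alone raised it (log2 fold change 0.81, SE 0.0672, adjusted p = 1.09e-06), IAA alone raised it (0.41, SE 0.0668, adjusted p = 4.89e-05), and within IAA the BL response of 0.11 did not pass (adjusted p = 0.338). It was at 88.3 and 92.2 CPM in bri1-116 (log2 fold change -1.15, SE 0.0688, adjusted p = 4.32e-09) and at 152 and 146 CPM in the double mutant, between bri1-116 and mock and different from both by the test. At 36 bp it was at 193 and 197 CPM in wild type, 128 and 189.6 CPM in dwf4 and 373 and 392 CPM in BL-treated dwf4 (log2 fold change against dwf4 1.27, SE 0.146, adjusted p = 0.00107). The libraries of mock, BL and IAA did not overlap, and at 36 bp both BL-treated libraries lay well above the other 4.

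XTH5 (AT5G13870) stood at 52.7 and 49.5 CPM in mock, 78.2 and 63 CPM with BL, 42.7 and 48 CPM with IAA and 86.9 and 112 CPM with both, so that the combined treatment was the highest group and IAA alone the lowest. BL raised it with IAA (log2 fold change 1.13, SE 0.108, adjusted p = 4.08e-06) and without (0.48, SE 0.108, adjusted p = 0.00785). The difference between these responses, the interaction, was 0.65 (adjusted p = 0.044) and did not pass in many of the alternative runs. It was at 55.8 and 53.6 CPM in bri1-116 and 61.8 and 55.6 CPM in the double mutant, with no call, and at 40.5 and 40, 30.8 and 45.6 and 63.7 and 77.2 CPM in wild type, dwf4 and dwf4 with BL. XTH8 (AT1G11545) was at 92.6 and 100.1 CPM in mock, 117 and 105 CPM with BL, 33.3 and 33.5 CPM with IAA (log2 fold change -1.53, SE 0.105, adjusted p = 2.25e-09) and 32 and 45.4 CPM with both. In bri1-116 and the double mutant XTH8 was at 81.5 and 80.6 and 114 and 105 CPM, and at 36 bp at 73.5 and 79.7, 52.5 and 60.7 and 80.9 and 97.3 CPM, lower in dwf4 and raised there by BL (0.65, SE 0.106, adjusted p = 0.0053).

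The other members of group I had small changes or low counts. XTH9 (AT4G03210) was at 25.4 and 23.2 CPM in mock, 29.9 and 31.9 with BL, 21.2 and 22.7 with IAA, 22.5 and 22.9 with both, 23.6 and 24.1 in bri1-116, 27.4 and 26.8 in the double mutant, and 22.5 and 22.8, 19.7 and 23.9 and 31.4 and 33.6 CPM in the 3 groups at 36 bp. It rose with BL in both genotypes (0.34 and 0.58) and was not called with IAA or in bri1-116. XTH10 (AT2G14620) was at 5.9 and 5.13, 5.36 and 7.45, 6.3 and 6.38, 8.19 and 6.72, 8.48 and 8.77 and 3.98 and 3.78 CPM in the groups at 101 bp and at 4.73 and 5.58, 4.75 and 4.18 and 5.9 and 5.45 CPM in wild type, dwf4 and dwf4 with BL, higher in bri1-116 (0.65) and lower in the double mutant than in bri1-116 (-1.15, SE 0.174, adjusted p = 6.38e-05). XTH7 and XTH11 were near the limit of detection. XTH7 (AT4G37800) was at 0.632 and 0.476 CPM in mock, 0.18 and 0.26 with BL, 1.31 and 1.8 with IAA, 2.82 and 3.88 with both, 1.26 and 0.566 in bri1-116 and 0.306 and 0.27 in the double mutant, and it was higher than mock with IAA (1.44, SE 0.366, adjusted p = 0.0029) and with both (2.57, SE 0.334, adjusted p = 6.04e-06). XTH11 (AT3G48580) was at 0.801 and 0.816, 0.54 and 1.04, 2.51 and 2.47, 1.59 and 1.18, 1.41 and 1.91 and 1.07 and 0.45 CPM in those groups. At 36 bp XTH7 was at 0.24 and 0.713, 1.5 and 0.92 and 1.65 and 2.03 CPM and XTH11 at 0.801 and 1.43, 1.66 and 1.25 and 1.1 and 0.872 CPM in wild type, dwf4 and dwf4 with BL.

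In group III, XTH31 and XTH32 form subgroup IIIA, whose enzymes include xyloglucan hydrolases, and their values with IAA went in opposite directions. XTH31 (AT3G44990) stood at 129 and 113 CPM in mock, 178 and 243 CPM with BL, 184 and 182 CPM with IAA and 198 and 191 CPM with both. BL raised it by 0.79, IAA by 0.60, and IAA plus BL by 0.69, SE 0.106, adjusted p = 3.82e-05, which lies between the single responses. XTH32 (AT2G36870) stood at 5.39 and 4.59, 3.33 and 4.68, 0.865 and 0.963 and 0.774 and 0.277 CPM in the same order, and fell with IAA. In bri1-116, XTH31 at 112 and 122 CPM did not differ from mock by the test, and XTH32 was at 3.13 and 3.32 CPM. In the double mutant XTH31 was at 154 and 137 CPM and XTH32 at 1.99 and 2.07 CPM (log2 fold change -1.29, SE 0.245, adjusted p = 0.00172 against mock). From wild type through dwf4 to dwf4 with BL, XTH31 went from 152 and 148 to 109.7 and 101 and 162 and 173 CPM, and XTH32 from 7.69 and 7.39 to 12.3 and 9.2 and 4.09 and 4.72 CPM. BL in dwf4 thus raised XTH31 (0.67, SE 0.0662, adjusted p = 0.000499) and lowered XTH32 (-1.28, SE 0.182, adjusted p = 0.00288).

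XTH33 (AT1G10550), whose enzyme is unusual in being anchored at the plasma membrane, stood at 7.59 and 8.63 CPM in mock, 14.1 and 13.9 CPM with BL, 0.558 and 1.14 CPM with IAA and 2.69 and 1.52 CPM with both. Its 2 IAA libraries were the lowest of the 12 at 101 bp. It was at 3.59 and 4.38 CPM in bri1-116 (log2 fold change -1.02, SE 0.173, adjusted p = 0.000199) and 5.06 and 5.49 CPM in the double mutant, which did not differ from bri1-116 by the test (adjusted p = 0.158). In wild type, dwf4 and dwf4 with BL it was at 4.09 and 4.67, 3.4 and 2.01 and 15.9 and 13.5 CPM, and both BL-treated libraries lay more than 2-fold above every other library at 36 bp. XTH30 (AT1G32170) was at 80.7 and 87.7 CPM in mock, 116 and 132 CPM with BL, 42.4 and 39.2 CPM with IAA and 47.3 and 56.8 CPM with both. It was lower in bri1-116, at 49.6 and 51.7 CPM (log2 fold change against mock -0.73, SE 0.0814, adjusted p = 2.75e-06), and at 92.5 and 86.4 CPM in the double mutant not different from mock by the test (adjusted p = 0.53). At 36 bp XTH30 was at 81.4 and 78.9, 59.4 and 67.3 and 114 and 115 CPM, lower in dwf4 and higher than wild type after BL (0.51, SE 0.071, adjusted p = 0.00227).

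XTH28 and XTH27 were not called for BL in either genotype. XTH28 (AT1G14720) was at 28.4 and 25.3 CPM in mock, 23.9 and 29.3 CPM with BL, 13.3 and 14.3 CPM with IAA, 15 and 11.3 CPM with both, 18.9 and 22.3 CPM in bri1-116 and 23.1 and 25.9 CPM in the double mutant, and IAA lowered it (-0.97, SE 0.119, adjusted p = 2.7e-06). XTH27 (AT2G01850, also EXGT-A3), which acts in developing veins, was at 52.7 and 54, 49.9 and 58.6, 48.2 and 50.2, 44.6 and 44.5, 52.4 and 50.2 and 56.8 and 54 CPM in the same groups. Its only call was IAA plus BL against mock (-0.26, SE 0.0691, adjusted p = 0.00468), and its level ranged over all 18 libraries from 43.8 to 58.6 CPM. At 36 bp XTH28 was at 32.5 and 36.5, 28.9 and 29.7 and 27.1 and 29.1 CPM and XTH27 at 50.4 and 49.2, 45 and 43.8 and 45.1 and 48 CPM in wild type, dwf4 and dwf4 with BL.

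**Figure D5:**
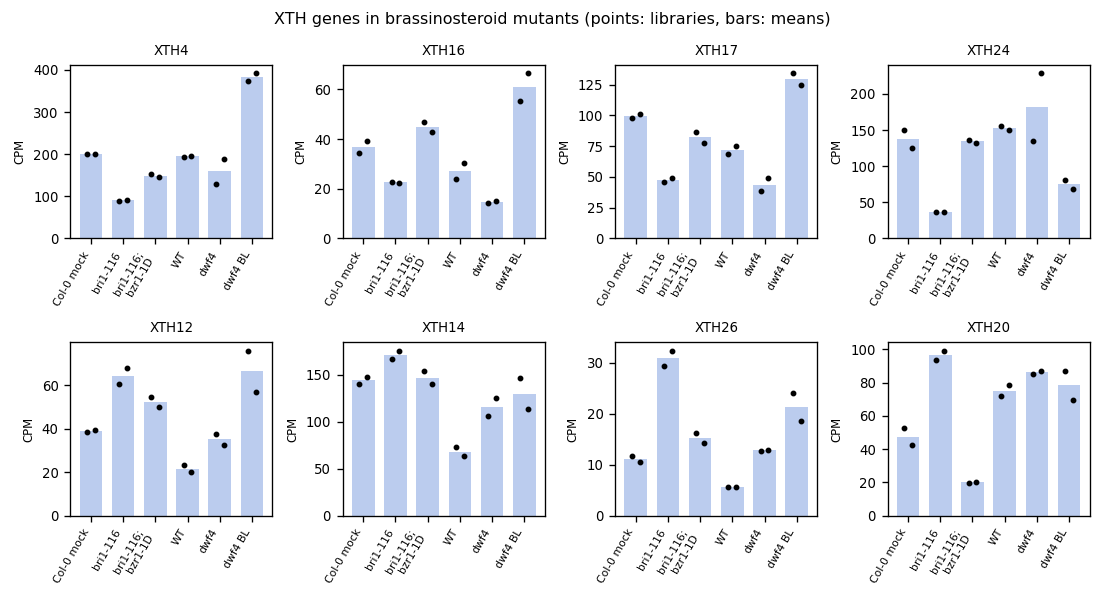
Levels of XTH4, XTH16, XTH17, XTH24, XTH12, XTH14, XTH26 and XTH20 in mock-treated Col-0, bri1-116 and the double mutant (101 bp) and in wild type, dwf4 and BL-treated dwf4 (36 bp), in CPM on axes that start at 0, with bars for the mean of 2 libraries and a point for each library. XTH4, XTH16 and XTH17 are low in bri1-116 and highest in BL-treated dwf4 at 36 bp, XTH24 is low in bri1-116 and in BL-treated dwf4, and XTH12, XTH14, XTH26 and XTH20 are higher in bri1-116 than in mock.

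Xyloglucan is made in the Golgi, and most of the enzymes that make it fell with IAA. The list held 15 genes, all tested: glucan synthases of the CSLC family, the xylosyltransferases XXT1 to XXT5, and MUR3, XLT2, FUT1, XUT1 and AXY4, which decorate the side chains. BL raised 4 and lowered 0: CSLC4 (0.31), CSLC12 (0.43), XUT1 (0.38) and AXY4 (0.44), with a list median of 0.10, where 6.37% of all genes were higher. IAA lowered 10 and raised 0, with a median of -0.26, where 29.3% of all genes were lower. XUT1 fell most, from 12.5 and 15.5 CPM in mock to 2.57 and 3.49 CPM (-2.28, SE 0.146, adjusted p = 9.56e-10) and to 1.5 and 1.52 CPM with both hormones. The interaction was negative for 2 and positive for 0 (0.838% of all genes were negative), CSLC12 (-1.18, SE 0.18, adjusted p = 0.00204) and XUT1 (-1.31). In dwf4, BL raised 3 and lowered 0 (7.86% of all genes were higher), CSLC4 from 81.8 and 104 to 181 and 179 CPM (0.96, SE 0.104, adjusted p = 0.000831), AXY4 (0.63) and XXT5 (0.37). In bri1-116, 4 were higher, CSLC12 (0.87), XXT4, MUR3 and XXT1, and 1 was lower, AXY4, a share close to the 36.1% called among all genes. Among 3 enzymes that trim xyloglucan in the wall, XYL1, the alpha-xylosidase, fell with BL in wild type (-0.40, SE 0.0762, adjusted p = 0.00275) and in dwf4 (-0.59, SE 0.0893, adjusted p = 0.00399) and was higher in bri1-116 (0.54, SE 0.0739, adjusted p = 2.63e-05) and in dwf4 (0.67, SE 0.0894, adjusted p = 0.00257). BGAL10, a beta-galactosidase, rose with BL in wild type (0.29, SE 0.0854, adjusted p = 0.0333) and with IAA (0.46). AXY8, an alpha-fucosidase, fell with IAA (-0.99), as XYL1 did (-0.21), and did not pass with BL (adjusted p = 0.0717). XYL1 thus stood at 171 and 180.3 CPM in mock, 146 and 119.6 CPM with BL and 265 and 245 CPM in bri1-116.

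Active BZR1 and added BL can be set side by side, since the 2 comparisons share no library. Of the 20 members called for the double mutant against bri1-116, 10 were also called for BL against mock, which is 50.0% of the first list and 71.4% of the 14 in the second, against 22.5% and 70% over all genes. Because most members were called in 1 or both, the number shared says little about the family. Of these 10 shared calls 7 had the same direction, against 90.2% of the shared calls of all genes, a difference that was not tested. XTH4, XTH15, XTH16, XTH17, XTH19, XTH30 and XTH31 went up in both, while XTH12 and XTH13 were lower with active BZR1 and higher with BL, and XTH24 the reverse. With BL in dwf4 the shared calls numbered 13 (65.0% and 81.2%, against 19.1% and 59.3% over all genes), of which 10 had the same direction (85.1% over all genes) and XTH12, XTH24 and XTH26 did not. Of the members called for BL in wild type, 5 were also called in untreated dwf4 against wild type (35.7% and 55.6% of the 2 lists, against 25.1% and 26.8% over all genes): XTH16, XTH17, XTH30 and XTH31 were raised by BL and low in dwf4, and XTH12 was higher in both. Over the 27 members the fold changes of BL in wild type and of dwf4 correlated at r = -0.57 (-0.24 over all genes), and those of the double mutant against bri1-116 at 0.33 with BL in wild type and at 0.25 with BL in dwf4 (0.24 and 0.25 over all genes).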

How the data were processed

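Transcripts of 18 root-tip libraries were measured, 2 for each of 9 groups, grouped by the genotype and treatment labels. The deposited files hold raw whole-number counts per locus, 33602 loci in each. They end with 5 closing lines for reads outside genes, not assigned or not unique, which were left out of totals. The 5 lines together held 5.87% to 7.25% of all counts with 101 bp reads and 10.9% to 12.0% with 36 bp reads. Reads not unique are part of these lines and made up 3.05% to 4.45% and 8.19% to 9.35% of all counts. The submitters' processing notes name HTSeq, Bowtie, TopHat 1.4.0 and the TAIR10 build. For the annotation release and the strand setting, the value is not given in the sources used here. Reads that fit more than 1 place may be missing for close paralogs.

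The counts were tested in R 4.3.3 by edgeR 4.0.16, which uses limma 3.58.1, after TMM scaling and filterByExpr on groups (at least 10 counts, and 15 in total), with 1 coefficient per group, quasi-likelihood F test, Benjamini-Hochberg adjustment over all genes and a prior count of 0.125. The 12 libraries at 101 bp (20644 genes, biological coefficient of variation 0.0483) and the 6 at 36 bp (19558 genes, 0.0723) were fitted apart. A fit of all 18 (20393 genes), with the read lengths scaled apart, served the difference between the BL responses. In all, 12 comparisons were made, and 27 members were called in 1 to 11 of them. Alternatives were DESeq2 1.42.0, edgeR with DESeq2 size factors or library totals in place of TMM, no low-count filter, and a fit of only the groups compared. Further ones were a fit of all 18 libraries with both read lengths scaled together, the replicate number as a block, and each library left out in turn. The test was also tried on simulated data for some of the comparisons, with levels and spread taken from these fits. On the log2 CPM scale both libraries of a group had r = 0.991 to 0.997, with differences beyond counting error (chi-square per degree of freedom 1.83 to 5.75), and none were identical.

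Members, marker and pathway lists and comparisons were chosen with earlier results of these data known. Every tested member passed the test at least once and is given in every library. Exon lengths and sequences came from the TAIR10.1 annotation of RefSeq, matched by locus identifier, and no coordinates of the files were used. Of the xyloglucan breakdown list, 2 genes without a symbol in that annotation were left out.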

Additional observations from a re-analysis of the deposited data

Results flagged for a closer look

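The response to BL differed between roots with and without IAA, by the test of the interaction itself, for 7 members. XTH13 had a difference of -0.91 on the log2 scale (edgeR adjusted p = 9.48e-05), XTH12 of -0.84 (0.000413), XTH31 of -0.71 (0.0216), XTH4 of -0.70 (0.000724), XTH14 of -0.63 (0.000666), XTH24 of 0.70 (0.00614) and XTH5 of 0.65 (0.0440). The calls of XTH5, XTH24 and XTH31 did not pass in every alternative run. BL raised XTH13 without IAA and lowered it with IAA, with both libraries of each group on the same side.

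The response to BL differed between dwf4 and wild type for 3 members, by the test of the difference in a fit of all 18 libraries. XTH33 differed by 1.64 (adjusted p = 0.0154), XTH16 by 1.4 (0.000354) and XTH17 by 1.12 (0.000301), each larger in dwf4. Read length, experiment and the use of an untreated group in place of a mock group at 36 bp coincide with genotype here and cannot be told apart from it.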

How the results depend on the processing

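Of the 176 calls of single members, none changed direction under any alternative run. In settings other than a left-out library, 1320 values of called members kept their side of the threshold and 42 did not, and 59 values of uncalled members passed. With a library left out the numbers were 615, 129 and 39. In settings other than a left-out library, counts of called members moved by over 1.5 times in 3 cases: with no low-count filter the interaction gave 13 and the difference between the BL responses 13, and with all 18 libraries in 1 fit the double mutant against mock gave 6. The causes were not tested. With 1 library left out, the counts ranged from 12 to 15 for BL, 20 to 21 for IAA, 22 to 23 for IAA plus BL, 8 to 13 for BL within IAA, 5 to 10 for the interaction, 16 to 18 for bri1-116, 15 to 17 for the double mutant against bri1-116, 7 to 8 for it against mock, 3 to 12 for dwf4, 14 to 19 for BL in dwf4, 9 to 14 for BL-treated dwf4 against wild type, and 2 to 9 for the difference between the BL responses. Where an arm was left with 1 library, its spread was taken to be that of the other groups. Library totals in place of TMM moved the share of higher calls among all genes from 51.3% to 69.0% for BL within IAA, from 41.9% to 58.8% for the interaction and from 37.7% to 52.2% for dwf4, and the split among the members by less than 10 percentage points.

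Replicate numbers did not pair the samples: over 18 pairs of groups of 1 set, same-numbered libraries deviated together at r = -0.19 to 0.17, over 0.1 in 1 pair. With the replicate number as a block, the 12 counts, in the order above, were 14, 21, 23, 12, 6, 19, 19, 11, 9, 17, 19 and 3. With summed counts of the paralogs XTH12 and XTH13, BL gave 0.54 (edgeR adjusted p = 4.96e-05) and bri1-116 0.71, and the sum of XTH17 to XTH20 gave 0.35 (0.00256) and -0.38. With 2 libraries a group, members at few counts, such as XTH7, XTH11 and XTH32, and XTH33 where IAA was given, have wide errors.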
